A study of Mus musculus with 9 samples.

Results

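The genes described here encode the proteins that license, fire and copy from DNA replication origins. The list holds 40 genes, chosen by name for these roles, and 39 of them were measured by a probe set that the platform annotation assigns to 1 gene, out of 18193 genes with such a probe set. The level of Chaf1a was not analysed here. Each gene was represented by the probe set with the highest mean, and the 39 genes were among the 10172 that passed a filter on low values (4 or more of the 9 arrays had to exceed 4 on the log2 scale, which is an intensity of 16). All 39 were over this level by a wide margin: the lowest value of any of them was 6.15 on the log2 scale.

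Lymphomas came from 2 groups of transgenic mice on a background that was 94% C57BL/6. One group, called double-transgenic here, carried Eμ-Myc and Eµ-TTP-1 and gave 5 lymphomas. The other carried Eμ-Myc without Eµ-TTP-1 and gave 4. All 9 tumours therefore carried the Myc transgene. Eμ is the enhancer of the immunoglobulin heavy chain gene and drives a transgene in B lymphoid cells, and TTP (tristetraprolin) is a protein that binds AU-rich mRNAs and speeds their breakdown. The series was titled for TTP in Myc-induced lymphoma, and the comparison asks how mRNA levels in tumours that carried the TTP transgene differed from those in tumours that did not. RNA was extracted from whole homogenised pieces of tumour, which also hold cells of the host. The labels give no age or sex and call the samples biological replicates. One Affymetrix mouse array was run for each lymphoma, and precision is limited by how few arrays there are. Values are log2 of the deposited GCRMA intensities, and every difference is double-transgenic minus Eμ-Myc unless stated otherwise.

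Before S phase, the origin recognition complex (Orc1 to Orc6) together with Cdc6 and Cdt1 loads the MCM2-7 helicase ring on DNA, a step called licensing, and geminin (Gmnn) blocks Cdt1 to prevent a repeat. At the start of S phase the kinase Cdc7 with Dbf4 and cyclin-dependent kinase activity, partly from E cyclins, convert loaded rings to active helicases by adding Cdc45 and the GINS complex. Polymerase alpha with primase then lays primers, the RFC clamp loader places the PCNA clamp, polymerases delta and epsilon extend the strands, and Fen1 and Lig1 join lagging-strand fragments. Many of these genes are transcribed under E2F factors in late G1, and Myc is known to promote entry into S phase.

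No replication gene differed between the genotypes past the threshold. With limma, 0 of 39 had a Benjamini-Hochberg adjusted p under 0.05 over all genes tested, and the lowest adjusted p among them was 0.845. Over all 10172 genes the count was also 0 (0.00%), with a lowest adjusted p of 0.769 in limma; it was 8 without Eμ-Myc replicate 3 and 1 without Eμ-Myc replicate 4, with 0 replication genes in either case. The mean was higher in double-transgenic than in Eμ-Myc lymphomas for 38 of the 39 genes (97.4%), where the same held for 58.9% of all genes tested. The median difference was 0.32 over the replication genes and 0.05 over all genes. With each array centred on its median, the shares were 35 of 39 replication genes and 45.8% of all genes. Ccne1 was the single gene with a lower mean in the double-transgenic lymphomas.

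At an unadjusted limma p under 0.05 there were 6 replication genes, all with a positive difference: Gins2, Gins3, Prim1, Pole, Rfc3 and Rfc5. Over all genes tested, 5.67% reached this level, 3.87% with a positive and 1.80% with a negative difference. For 3 of the 39, Gins2, Prim1 and Rfc5, the groups had no overlapping values by the chosen probe set. Of all genes, 1.64% had groups that did not overlap and 1.18% had the double-transgenic values above. The exact permutation p, two-sided, was 0.00794 for each of these 3, and groups that do not overlap tend toward this smallest possible value. This permutation p was 0.0238 for Pole, 0.0476 for Gins3, 0.0714 for Rfc3, 0.0952 for Pola1, 0.119 for Orc1 and 0.127 for Cdc6. For Slbp, Mcm10, Ccne1 and Uhrf1 it was 0.143, 0.151, 0.222 and 0.31. For Cdt1, Prim2 and Fen1 it was 0.627, 0.833 and 0.929. By role, the median difference was 0.26 for 14 licensing genes, 0.37 for 10 firing genes, 0.36 for 13 fork synthesis genes and 0.32 for the 2 chromatin genes, Uhrf1 and Slbp.

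**Figure D1:**
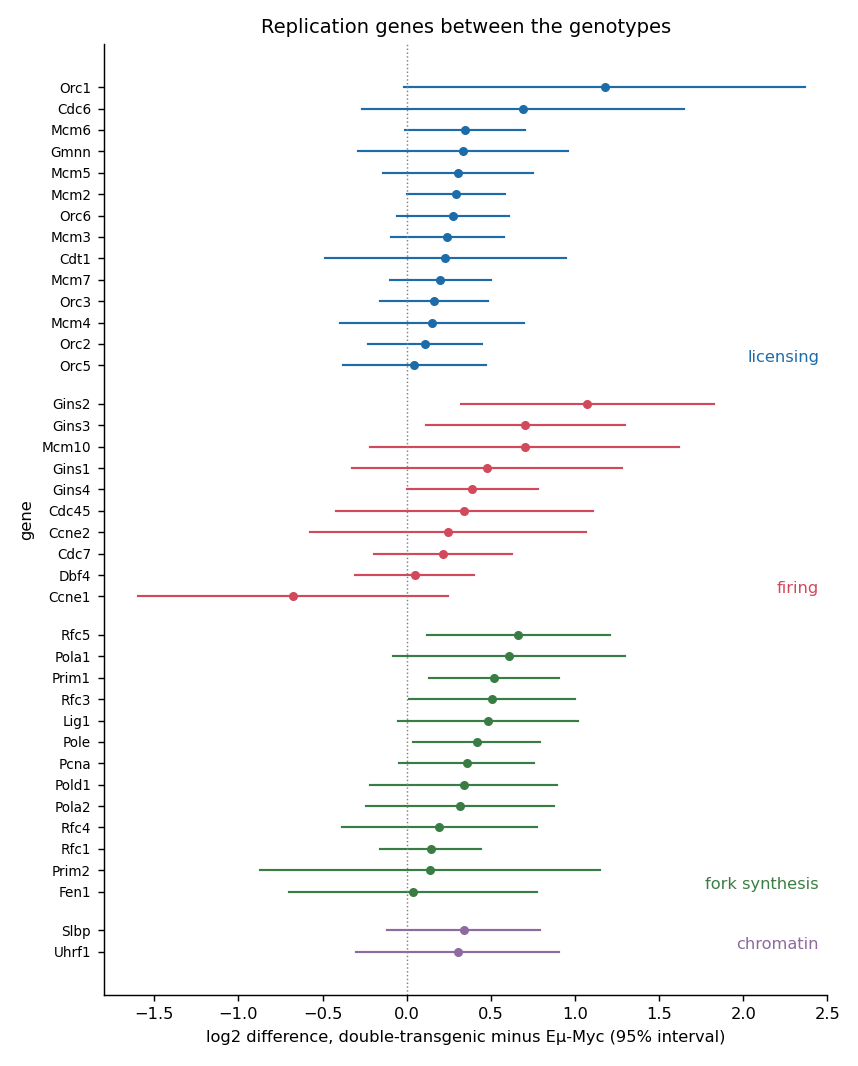
Log2 difference of each replication gene, double-transgenic minus Eμ-Myc (x axis; points are limma estimates, bars their 95% intervals), by role. Of 39 genes, 38 lie right of 0 and Ccne1 lies left of it at -0.68; the intervals of 6 genes lie wholly above 0, none of which has an adjusted limma p under 0.05.

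Most of these genes had their lowest level in 1 Eμ-Myc lymphoma, replicate 1. Each gene's value was set against its median over the 9 arrays, and the median of these deviations was taken over the 39 genes. It was 0.00, 0.06, 0.13, 0.09 and -0.03 in double-transgenic replicates 1 to 5, against -0.74, -0.02, -0.35 and 0.05 in Eμ-Myc replicates 1 to 4. The same median over all genes tested lay between -0.02 and 0.00 in every array. Thus the low values lay in Eμ-Myc replicate 1 and, to a smaller extent, in Eμ-Myc replicate 3, while the other 7 tumours lay near each other.

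Eμ-Myc replicate 1 was the lowest of the 9 arrays for 30 of the 39 genes (76.9%), against 19.6% of all genes tested. Eμ-Myc replicate 3 was lowest for 4, Orc2, Orc3, Gins4 and Rfc4 (16.9% of all genes). Double-transgenic replicate 2 was lowest for Orc5 and Ccne1 (16.3% of all genes), and double-transgenic replicate 3 (8.90% of all genes), double-transgenic replicate 4 (4.04%) and Eμ-Myc replicate 2 (12.2%) were lowest for 1 gene each, Pola2, Prim2 and Rfc3. No replication gene was lowest in double-transgenic replicates 1 and 5 or Eμ-Myc replicate 4, which held the lowest value of 7.89%, 6.56% and 7.65% of all genes. Replicates 1 and 3 of Eμ-Myc were the 2 lowest arrays for 25 genes (64.1%), against 8.44% of all genes. With replicate 1 set aside, replicate 3 was the lowest of the other 8 arrays for 27 genes (69.2%), against 22.1% of all genes. The highest of the 9 values was in double-transgenic replicate 1 for 2 genes (9.19% of all genes), in replicate 2 for 8 (18.6%), in replicate 3 for 11 (11.1%), in replicate 4 for 4 (6.33%) and in replicate 5 for 2 (8.56%). It was in Eμ-Myc replicate 2 for 4 (11.9%) and in replicate 4 for 8 (10.1%), but in Eμ-Myc replicates 1 and 3 for 0 (13% and 11.2%). The genes are regulated together through the cell cycle, so they are not independent measurements of a tumour, and in bulk tissue fewer cells of a type and less RNA per cell cannot be told apart.

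**Figure D2:**
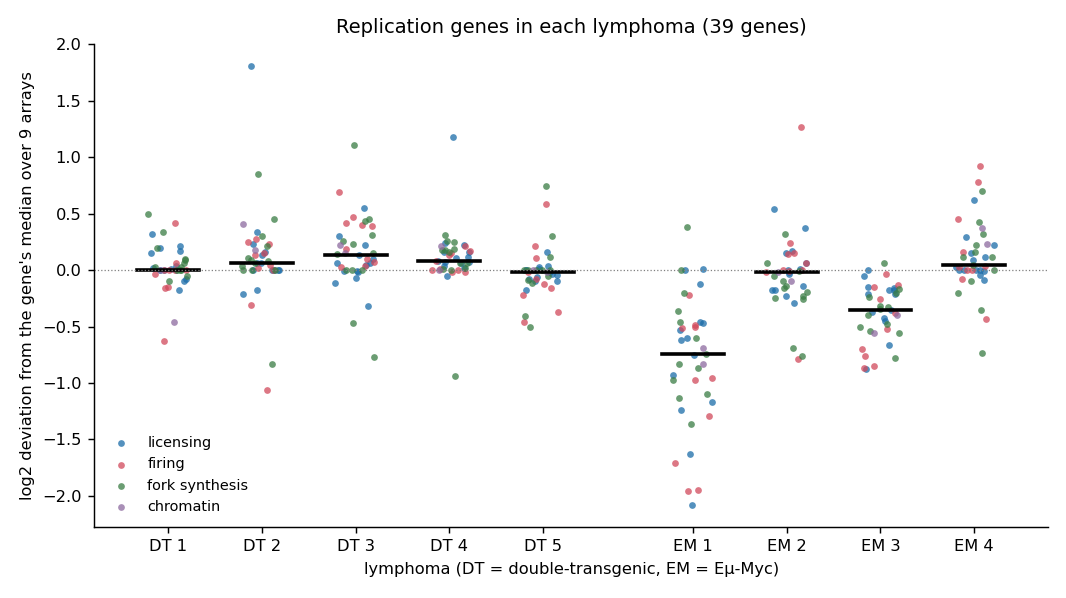
Log2 deviation of each of the 39 replication genes from its own median over the 9 arrays (y axis) in each lymphoma (x axis), coloured by role, with the median of the genes as a bar. The bar lies at -0.74 in Eμ-Myc replicate 1 and -0.35 in Eμ-Myc replicate 3 and between -0.03 and 0.13 in the other 7 lymphomas.

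The depth of the low value in Eμ-Myc replicate 1 varied by gene. Relative to the median of the other 8 arrays, the median over the 39 genes was -0.76, against -0.05 over all genes tested. It was at least 1 log2 unit below for 12 genes, where 10% of all genes were as far below. These 12 included the loading factors Cdc6 and Cdt1, geminin, Mcm10, Gins1 and Gins2. For 4 genes replicate 1 lay above the median of the others: Orc2 by 0.04, Orc3 by 0.03, Rfc3 by 0.14 and Prim2 by 0.72. The median deviation in replicate 1 was -0.61 for licensing, -0.96 for firing, -0.74 for fork synthesis and -0.76 for the chromatin genes. In Eμ-Myc replicate 3 these medians were -0.21, -0.45, -0.34 and -0.48 in the same order of roles.

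Markers of cell types were read beside these values, as sums of intensity over each list. The 8 measured pan-B markers summed to between 61941.2 and 68661.2 in double-transgenic lymphomas and between 46623.9 and 85054.8 in Eμ-Myc lymphomas, with 63325.8 in Eμ-Myc replicate 1 and 46623.9 in replicate 3, so B cell markers were present in all 9. The 10 T cell markers summed to 1409.3 to 3972.9 in double-transgenic and 1355.3 to 4876.3 in Eμ-Myc lymphomas, and Cd3e, Cd5 and Trat1 were below an intensity of 16 on all arrays. The sum was highest in Eμ-Myc replicate 1, where nearly all of it was Cd2, at 12.22 on the log2 scale; Cd3d read 3.70, Cd28 3.38, Cd4 4.03 and Thy1 5.03 there. The 11 macrophage markers summed to 29022.2 to 49257.7 in double-transgenic and 19077.0 to 64688.0 in Eμ-Myc lymphomas; replicate 1 read 20414.2 and replicate 3 read 64688.0. Thus the 2 tumours with low replication genes lay near opposite ends of the macrophage sum. Granulocyte markers (10 measured) did the same, at 837.2 in Eμ-Myc replicate 1 and 20460.3 in replicate 3, within 230.9 to 22713.8 in double-transgenic and 837.2 to 20460.3 in Eμ-Myc lymphomas. The 11 stroma and endothelium markers summed to 6188.1 to 56519.7 in double-transgenic and 11891.3 to 66139.2 in Eμ-Myc lymphomas, with 22399.9 in replicate 1 and 17211.8 in replicate 3. The part of these cells in the low replication values was not tested.

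Markers of B cell stage and of scarcer cells varied as well. The 10 precursor B markers summed to 8220.2 to 93369.7 in double-transgenic and 5119.3 to 41756.8 in Eμ-Myc lymphomas, with 41756.8 in Eμ-Myc replicate 1, the highest of that group, and 21438.2 in replicate 3. Plasma cell markers (5) summed to 5537.1 to 10061.4 in double-transgenic and 6162.7 to 12867.4 in Eμ-Myc lymphomas. The NK list (6 measured, Ncr1 and Gzmb below 16 on all arrays) summed to 29.6 to 182.9 in double-transgenic and 56.2 to 349.1 in Eμ-Myc lymphomas. The dendritic list (5 measured, Siglech, Xcr1 and Cd209a below 16 on all arrays) summed to 31.7 to 82.6 in double-transgenic and 36.6 to 165.1 in Eμ-Myc lymphomas. The 5 erythroid markers summed to 162.4 to 34006.0 in double-transgenic and 49.1 to 180.8 in Eμ-Myc lymphomas, with 49.1 in Eμ-Myc replicate 1. Nearly all of that range was Car2, which other cells also express and which read 6.90 to 15.05 in double-transgenic and 3.14 to 7.20 in Eμ-Myc lymphomas on the log2 scale. Hba-a1 and Epor were below an intensity of 16 on all arrays, and Hba-a2 read 4.22 to 4.51 in double-transgenic and 4.18 to 4.27 in Eμ-Myc lymphomas. Differentiation stage was likewise not tested as a part of the low values.

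Promoter sequence was examined because E2F factors are known regulators of this set. RefSeq promoters (assembly GRCm38.p6, 250 bases before to 50 after the start of a gene) were matched for 32 of the 40 genes, Chaf1a among them. These 32 genes have 39 promoters in the table, and a gene was counted as a holder where any of its promoters held the word. The words TTTCCCGC, TTTCGCGC, TTTGCCGC and TTTGGCGC, which are forms of the E2F site, were searched on both strands and may overlap each other. The holders were 14 of the 32 genes (43.8%), against 5.1% of 8331 tested genes with a promoter and 2.6% of all 27025 genes in the table. By promoter, 14 of 39 held a word (35.9%), against 2.26% of all 32851. The 14 genes were Orc1, Orc3, Cdc6, Cdt1, Mcm3, Mcm5, Mcm6, Mcm7, Gins3, Pola1, Pold1, Rfc3, Lig1 and Uhrf1. Shares of the other words lay nearer to those of all genes: the NF-Y box CCAAT was held by 19 genes (59.4%, against 43.3% of tested genes and 41.1% of all genes in the table), the E-box CACGTG by 5 (15.6%, against 12.3% and 8.09%) and the CHR element TTTGAA by 6 (18.8%, against 14.4% and 20.2%).

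The 250 bases before the start are shown for 6 holders, with the E2F words in capitals on the strand of the gene. Orc1 (chr4:108579204-108579453, plus strand), Cdc6 (chr11:98907901-98908150, plus strand), Mcm5 (chr8:75109259-75109508, plus strand) and Gins3 (chr8:95633309-95633558, plus strand) are shown because these genes were among the low ones in Eμ-Myc replicate 1. Orc3 (chr4:34614943-34615192, minus strand) and Rfc3 (chr5:151651209-151651458, minus strand) are shown because they hold words of the same set and were not low there by the chosen probe set.
Orc1: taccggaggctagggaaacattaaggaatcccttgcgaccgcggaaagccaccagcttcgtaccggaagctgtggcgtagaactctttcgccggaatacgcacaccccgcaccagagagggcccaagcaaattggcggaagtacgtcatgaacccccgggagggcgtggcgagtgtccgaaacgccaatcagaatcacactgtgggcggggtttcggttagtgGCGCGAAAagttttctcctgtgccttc
Cdc6: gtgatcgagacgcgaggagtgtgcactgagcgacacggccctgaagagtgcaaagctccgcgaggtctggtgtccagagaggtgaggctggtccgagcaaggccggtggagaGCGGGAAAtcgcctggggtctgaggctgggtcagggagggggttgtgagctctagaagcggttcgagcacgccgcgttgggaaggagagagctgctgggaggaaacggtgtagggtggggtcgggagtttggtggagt
Mcm5: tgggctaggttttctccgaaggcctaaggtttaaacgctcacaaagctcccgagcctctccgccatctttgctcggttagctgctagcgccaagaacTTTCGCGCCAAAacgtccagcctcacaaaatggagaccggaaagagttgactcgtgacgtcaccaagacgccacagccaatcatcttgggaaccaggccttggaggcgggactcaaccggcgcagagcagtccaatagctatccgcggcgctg
Gins3: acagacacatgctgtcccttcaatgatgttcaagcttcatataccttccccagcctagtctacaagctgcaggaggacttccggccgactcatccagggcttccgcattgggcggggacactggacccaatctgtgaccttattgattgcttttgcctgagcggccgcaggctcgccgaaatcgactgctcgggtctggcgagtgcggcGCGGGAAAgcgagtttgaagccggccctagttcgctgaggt
Orc3: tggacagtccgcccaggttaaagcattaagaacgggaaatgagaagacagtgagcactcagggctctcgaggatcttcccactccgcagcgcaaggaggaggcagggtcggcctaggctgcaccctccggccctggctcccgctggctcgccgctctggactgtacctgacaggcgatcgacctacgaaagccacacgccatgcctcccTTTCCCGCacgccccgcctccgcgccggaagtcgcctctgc
Rfc3: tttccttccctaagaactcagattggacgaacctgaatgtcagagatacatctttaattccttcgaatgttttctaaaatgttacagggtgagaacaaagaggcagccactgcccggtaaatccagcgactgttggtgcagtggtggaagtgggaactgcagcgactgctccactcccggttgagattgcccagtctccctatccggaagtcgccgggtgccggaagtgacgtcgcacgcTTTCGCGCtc
The first base of the word shown lay 27 bases before the start in Orc1, 138 in Cdc6, 41 in Gins3, 41 in Orc3 and 10 in Rfc3. Rfc3 also held the word GCGGGAAA directly after the 250 bases shown. In Mcm5 a pair of words overlapped, with first bases 153 and 149 before the start. Relative to the median of the other 8 arrays, Eμ-Myc replicate 1 lay at -1.70 for Orc1, -2.08 for Cdc6, -0.94 for Mcm5 and -0.98 for Gins3, but at 0.03 for Orc3 and 0.14 for Rfc3. By their further probe sets it lay at -0.35 and -0.61 for Orc3 and at -0.05 for Rfc3. Those of the low genes gave -0.40 for Orc1, -1.38 and -0.02 for Mcm5 and -1.21 for Gins3. A matching word is a description of these windows and not a measured site.

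Among licensing genes, Orc1, the subunit of the origin recognition complex whose level changes through the cell cycle in mammalian cells, had the widest range. It read 7.93, 9.59, 7.46, 8.96 and 7.78 in double-transgenic replicates 1 to 5, against 6.15, 7.93, 6.90 and 7.69 in Eμ-Myc replicates 1 to 4. Double-transgenic replicates 2 and 4 were the highest and Eμ-Myc replicate 1 the lowest, and the groups overlapped between 7.46 and 7.93. The difference of 1.18 (SE 0.53, 95% interval -0.02 to 2.37, adjusted p from limma 0.845) was the largest of the 39, and it was 0.84 without Eμ-Myc replicate 1. The other subunits were steadier. Differences were 0.11 for Orc2, 0.16 for Orc3, 0.04 for Orc5 and 0.28 for Orc6; leaving out 1 array brought that of Orc2 to 0.01 and that of Orc3 to 0.06 (without Eμ-Myc replicate 3) and that of Orc5 to -0.07 (without double-transgenic replicate 3). Of the 5 subunits Orc1 and Orc6 were lowest in Eμ-Myc replicate 1.

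Cdc6, the ATPase that joins the origin recognition complex to load MCM rings, read 11.81, 11.98, 12.29, 12.01 and 11.99 in double-transgenic replicates 1 to 5, against 9.91, 11.80, 11.32 and 12.27 in Eμ-Myc replicates 1 to 4. The 5 double-transgenic tumours lay within 0.5 log2 units of each other, while Eμ-Myc replicate 1 was at 0.236 of the median intensity of the other 8 arrays. The groups overlapped, and the difference was 0.69 (SE 0.42, 95% interval -0.26 to 1.65, adjusted p from limma 0.860). It was 0.22 without Eμ-Myc replicate 1.

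Cdt1, the partner of Cdc6 in loading, read 12.75, 12.85, 12.83, 12.92 and 12.89 in double-transgenic replicates 1 to 5, against 11.61, 13.39, 12.49 and 12.97 in Eμ-Myc replicates 1 to 4. The Eμ-Myc tumours thus enclosed the double-transgenic ones on both sides, with replicate 1 lowest and replicate 2 highest. The standard deviation was 0.07 in double-transgenic lymphomas (n = 5) and 0.76 in Eμ-Myc lymphomas (n = 4). The difference was 0.23 (95% interval -0.49 to 0.95) with all arrays and -0.11 without Eμ-Myc replicate 1. Gmnn, which encodes the Cdt1 inhibitor geminin, had the same low tumour, at 12.20 to 12.51 in double-transgenic lymphomas against 11.12 in Eμ-Myc replicate 1 and values of 11.84 to 12.51 in the other Eμ-Myc lymphomas.

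**Figure D3:**
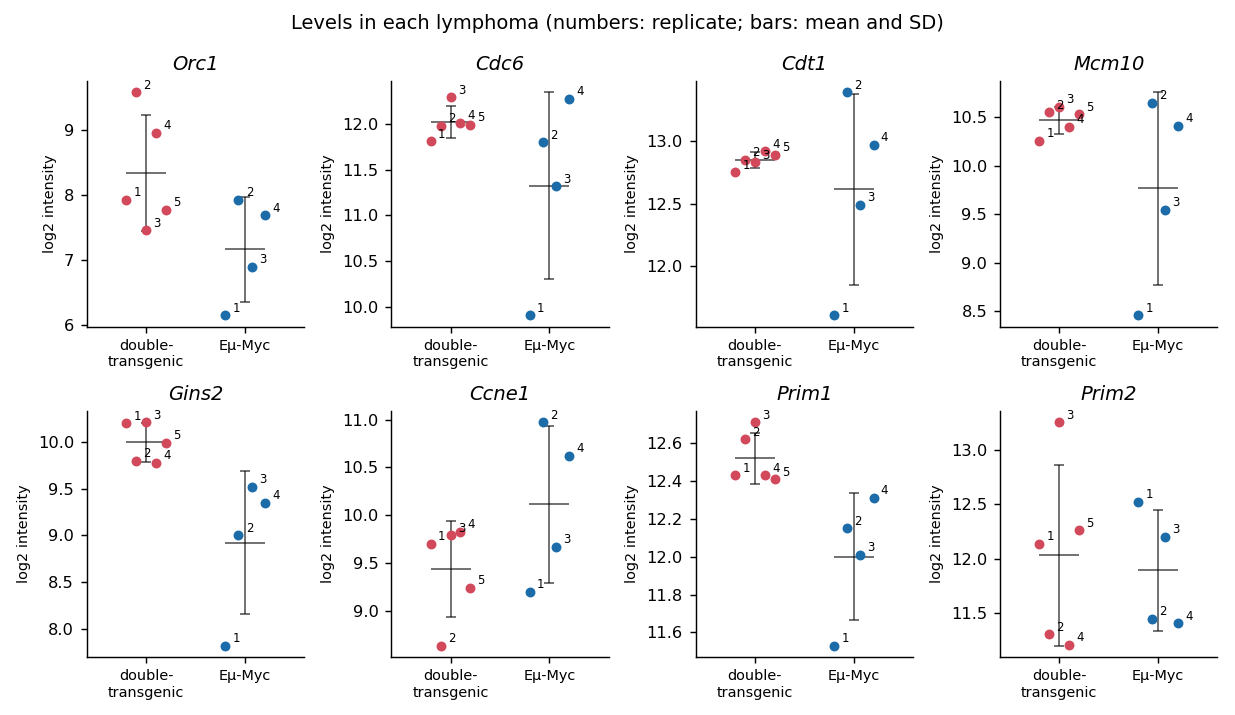
Log2 intensity (y axis, which does not start at 0) of 8 replication genes in the double-transgenic lymphomas (left in each panel) and the Eμ-Myc lymphomas (right), with points numbered by replicate and bars for mean and SD. Eμ-Myc replicate 1 is the lowest point for Orc1, Cdc6, Cdt1, Mcm10, Gins2 and Prim1 but the highest Eμ-Myc point for Prim2, and groups do not overlap for Gins2 and Prim1.

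The 6 genes of the MCM2-7 ring, the core of the replicative helicase, were alike. All 6 were lowest in Eμ-Myc replicate 1, between 0.48 and 0.94 log2 units below the median of the other 8 arrays. Differences between the genotypes were 0.29 for Mcm2, 0.24 for Mcm3, 0.15 for Mcm4, 0.30 for Mcm5, 0.35 for Mcm6 and 0.20 for Mcm7. Without Eμ-Myc replicate 1 they were 0.19 for Mcm2, 0.10 for Mcm3, -0.07 for Mcm4, 0.08 for Mcm5, 0.22 for Mcm6 and 0.09 for Mcm7. Their standard deviations were 0.03 to 0.16 in double-transgenic lymphomas and 0.22 to 0.57 in Eμ-Myc lymphomas. Mcm5 showed the contrast most clearly, with 14.88 to 14.95 in the 5 double-transgenic lymphomas against 13.95 in Eμ-Myc replicate 1 and values of 14.74 to 14.88 in the other Eμ-Myc lymphomas. Mcm5 was read from a probe set of the _x_at kind, which can bind related transcripts.

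Among firing genes, Mcm10, a factor that joins the helicase at origin firing, read 10.26, 10.55, 10.61, 10.40 and 10.53 in double-transgenic replicates 1 to 5, against 8.46, 10.65, 9.55 and 10.41 in Eμ-Myc replicates 1 to 4. Eμ-Myc replicates 1 and 3 were the 2 lowest arrays and the other Eμ-Myc tumours lay inside or just above the double-transgenic range. The difference of 0.70 (95% interval -0.22 to 1.62, adjusted p from limma 0.860) was 0.27 without Eμ-Myc replicate 1.

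Gins2, a subunit of the GINS complex that activates the helicase with Cdc45, read 10.20, 9.80, 10.21, 9.78 and 9.99 in double-transgenic replicates 1 to 5, against 7.82, 9.0, 9.52 and 9.35 in Eμ-Myc replicates 1 to 4. Every double-transgenic tumour was above every Eμ-Myc tumour. The difference was 1.07 (SE 0.33, 95% interval 0.33 to 1.82), the exact permutation p was 0.00794, two-sided, which is the smallest that the splits of 9 arrays into 5 and 4 can give, and the adjusted p from limma was 0.845. Without Eμ-Myc replicate 1 the difference was 0.71, and without both Eμ-Myc replicates 1 and 3 it was 0.82. A second Gins2 probe set gave a difference of 0.96 and was also lowest in Eμ-Myc replicate 1.

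Gins3, another subunit, read 8.28, 8.54, 8.75, 8.26 and 8.88 in double-transgenic replicates 1 to 5, against 7.32, 8.27, 7.43 and 8.33 in Eμ-Myc replicates 1 to 4. By this probe set, Eμ-Myc replicates 1 and 3 lay apart from the other 7 tumours, whose groups overlapped between 8.26 and 8.33. The difference was 0.70 (95% interval 0.11 to 1.29, adjusted p from limma 0.845). A second Gins3 probe set gave a difference of 0.885 and did not set replicates 1 and 3 apart. It read 6.64, 6.88, 7.08 and 7.84 in Eμ-Myc replicates 1 to 4. Gins1 had a difference of 0.48, which was 0.07 without Eμ-Myc replicate 1, and Gins4 one of 0.39, which was 0.31 without it. Gins1 stood at 11.46 to 11.84 in double-transgenic lymphomas against 9.97 in Eμ-Myc replicate 1 and values of 11.30 to 11.84 in the other Eμ-Myc lymphomas. Gins4 was instead lowest in Eμ-Myc replicate 3, by 0.02 log2 units below replicate 1.

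The kinase genes Cdc7 and Dbf4 varied little. Cdc7 had a difference of 0.21 and Dbf4, its activating subunit, one of 0.05, and Eμ-Myc replicate 1 was lowest for both, by 0.25 and 0.52 log2 units below the median of the others. The Cdc7 difference was 0.08 without double-transgenic replicate 3, and that of Dbf4 was -0.08 without Eμ-Myc replicate 1. Cdc45, the helicase cofactor, had a difference of 0.34 (0.09 without Eμ-Myc replicate 1), with 8.81 to 9.36 in double-transgenic lymphomas against 8.0, 8.97, 8.27 and 9.75 in Eμ-Myc replicates 1 to 4.

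Ccne1, which encodes cyclin E1, a partner of Cdk2 at the start of S phase, had the single negative difference. It read 9.70, 8.64, 9.79, 9.83 and 9.24 in double-transgenic replicates 1 to 5, against 9.20, 10.97, 9.67 and 10.62 in Eμ-Myc replicates 1 to 4. Eμ-Myc replicates 2 and 4 were above all other tumours, double-transgenic replicate 2 was the lowest, and the groups overlapped. The difference was -0.68 (SE 0.41, 95% interval -1.60 to 0.25, adjusted p from limma 0.860). Because Eμ-Myc replicate 1 lay low in its group, the difference was -0.98 without it and -1.35 without both replicates 1 and 3. The second Ccne1 probe set gave -0.54. Ccne2, the other E cyclin gene, had a difference of 0.25 (-0.06 without Eμ-Myc replicate 1), with 10.31 to 11.22 in double-transgenic lymphomas against 9.65, 11, 10.19 and 11.39 in Eμ-Myc replicates 1 to 4.

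Among fork genes, Pola1, the catalytic subunit of polymerase alpha, read 11.40, 12.16, 11.31, 11.62 and 11.31 in double-transgenic replicates 1 to 5, against 10.18, 11.18, 10.83 and 11.63 in Eμ-Myc replicates 1 to 4. Double-transgenic replicate 2 was highest, Eμ-Myc replicates 1 and 3 were lowest, and only Eμ-Myc replicate 4 reached into the double-transgenic range. The difference was 0.61 (95% interval -0.08 to 1.30, adjusted p from limma 0.859). It was 0.35 without Eμ-Myc replicate 1.

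Prim1, the catalytic subunit of primase, read 12.43, 12.62, 12.71, 12.43 and 12.41 in double-transgenic replicates 1 to 5, against 11.53, 12.15, 12.01 and 12.31 in Eμ-Myc replicates 1 to 4. By this probe set the groups did not overlap, with the nearest tumours 0.10 log2 units apart. The difference was 0.52 (SE 0.17, 95% interval 0.13 to 0.91, exact permutation p = 0.00794, two-sided, adjusted p from limma 0.845), and it was 0.36 without Eμ-Myc replicate 1. A second Prim1 probe set gave a difference of 0.53, but its groups overlapped. There Eμ-Myc replicate 4 read 12.37, above double-transgenic replicates 1 (12.36) and 5 (12.34).

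Prim2, the large subunit of primase, did not share the pattern of its partner. It read 12.14, 11.31, 13.25, 11.21 and 12.26 in double-transgenic replicates 1 to 5, against 12.52, 11.45, 12.20 and 11.41 in Eμ-Myc replicates 1 to 4. Both groups held high and low tumours: double-transgenic replicate 3 was the highest of the 9, Eμ-Myc replicate 1 the second highest, and double-transgenic replicates 2 and 4 and Eμ-Myc replicates 2 and 4 lay at 11.45 or below. The difference was 0.14 (95% interval -0.87 to 1.15), with -0.17 without double-transgenic replicate 3 and 0.35 without Eμ-Myc replicate 1. The other 2 Prim2 probe sets had double-transgenic replicate 3 highest and Eμ-Myc replicate 1 second as well, with differences of -0.13 and 0.26. The 3 probe sets thus gave the same 2 highest tumours but not the same sign between genotypes.

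Pole, the catalytic subunit of polymerase epsilon, read 11.23, 11.03, 11.30, 11.22 and 11.03 in double-transgenic replicates 1 to 5, against 10.30, 10.79, 10.83 and 11.08 in Eμ-Myc replicates 1 to 4. Only Eμ-Myc replicate 4 overlapped the double-transgenic range. The difference was 0.41 (95% interval 0.04 to 0.79, adjusted p from limma 0.845) and 0.26 without Eμ-Myc replicate 1. Pold1, the catalytic subunit of polymerase delta, had a difference of 0.34, and Pcna, the sliding clamp, one of 0.36; without Eμ-Myc replicate 1 these were 0.19 and 0.23. Pcna stood at 14.97 to 15.47 in double-transgenic lymphomas against 14.42, 14.97, 14.70 and 15.14 in Eμ-Myc replicates 1 to 4.

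The clamp loader subunits differed among themselves. Rfc5 read 11.49, 11.51, 11.57, 11.61 and 11.43 in double-transgenic replicates 1 to 5, against 10.07, 11.27, 10.87 and 11.23 in Eμ-Myc replicates 1 to 4. The groups did not overlap, and the 5 double-transgenic tumours had an SD of 0.07 (n = 5) where the Eμ-Myc tumours had one of 0.56 (n = 4). The difference was 0.66 (SE 0.24, 95% interval 0.12 to 1.21, exact permutation p = 0.00794, two-sided, adjusted p from limma 0.845), and it was 0.40 without Eμ-Myc replicate 1.

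Rfc3 read 11.07, 11.03, 11.18, 10.80 and 10.32 in double-transgenic replicates 1 to 5, against 10.73, 9.97, 10.39 and 10.38 in Eμ-Myc replicates 1 to 4. Here Eμ-Myc replicate 1 was the highest of its group and replicate 2 the lowest, unlike for most of these genes. The difference was 0.51 (95% interval 0.02 to 1.0, adjusted p from limma 0.845) with all arrays and 0.63 without Eμ-Myc replicate 1. Rfc1, the large subunit, had a difference of 0.14 (0.05 without Eμ-Myc replicate 1) and Rfc4 one of 0.19 (0.06 without Eμ-Myc replicate 3).

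Of the genes that finish lagging-strand fragments, Fen1, the flap endonuclease, read 11.82, 11.87, 11.10, 11.88 and 12.17 in double-transgenic replicates 1 to 5, against 10.90, 12.19, 11.54 and 12.30 in Eμ-Myc replicates 1 to 4. Eμ-Myc replicate 1 and double-transgenic replicate 3 were the lowest, and the groups overlapped almost wholly. The difference was 0.04 (95% interval -0.70 to 0.77), and -0.24 without Eμ-Myc replicate 1. Lig1, the ligase that seals the fragments, had a difference of 0.48 (0.25 without Eμ-Myc replicate 1), with 11.81 to 12.07 in double-transgenic lymphomas against 10.71, 11.71, 11.28 and 11.94 in Eμ-Myc replicates 1 to 4.

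By the chosen probe sets, both measured chromatin genes were lowest in Eμ-Myc replicate 1. Uhrf1, which recruits the maintenance DNA methyltransferase to replicated DNA, read 13.18, 14.05, 13.79, 13.84 and 13.64 in double-transgenic replicates 1 to 5, against 12.80, 13.54, 13.24 and 14.01 in Eμ-Myc replicates 1 to 4. Its lowest values were in Eμ-Myc replicate 1 and double-transgenic replicate 1, followed by Eμ-Myc replicate 3. The difference was 0.30 (95% interval -0.30 to 0.90), or 0.10 without Eμ-Myc replicate 1. A second Uhrf1 probe set was lowest in double-transgenic replicate 5 (10.56), below Eμ-Myc replicate 1 (10.65), and gave a difference of 0.135. Slbp, which binds the stem-loop of replication-dependent histone mRNAs, read 13.95, 14.13, 14.17, 13.95 and 13.92 in double-transgenic replicates 1 to 5, against 13.25, 13.92, 13.39 and 14.18 in Eμ-Myc replicates 1 to 4. Eμ-Myc replicates 1 and 3 lay at least 0.5 log2 units below every other tumour for Slbp, and the difference was 0.34 (95% interval -0.12 to 0.79), or 0.19 without Eμ-Myc replicate 1.

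For these genes the double-transgenic tumours had a smaller spread than the Eμ-Myc tumours. The median SD was 0.17 in double-transgenic lymphomas and 0.48 in Eμ-Myc lymphomas, while over all genes tested it was 0.30 and 0.36. The SD was larger in Eμ-Myc for 32 of 39 genes (82.1%, against 59.4% of all genes). Without Eμ-Myc replicate 1 it was larger for 30 of 39 (76.9%, against 50.6% of all genes), and the median SD of the Eμ-Myc lymphomas was then 0.28. Spread between genotypes was described and not tested.

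The count of positive differences was smaller without the low Eμ-Myc tumours. Without Eμ-Myc replicate 1, 32 of 39 genes had a positive difference (all genes, 56.2%) and the median difference was 0.19 (all genes, 0.04); Orc5, Cdt1, Mcm4, Dbf4, Ccne1, Ccne2 and Fen1 then had a negative one. Without both Eμ-Myc replicates 1 and 3, an alternative chosen after seeing their low values, 22 genes had a positive and 17 a negative difference (all genes, 51.9% positive) and the median was 0.04 (all genes, 0.01). No replication gene had an adjusted limma p under 0.05 in either case. A comparison that leaves out 2 of 4 tumours for being low in these genes is not a comparison of the genotypes.

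The 5 replication genes on chromosomes 16 and 19 differed from the others in single tumours. Mcm4, Cdc45 and Rfc4 lie on chromosome 16. By the chosen probe sets all 3 were highest in Eμ-Myc replicate 4, with deviations of 0.62 to 0.78 from their medians. The median deviation in that tumour was 0.70 over the 3, against 0.04 over the 36 other replication genes. The 339 other genes of chromosome 16 also had a median of 0.50 there. Pola2, the regulatory subunit of polymerase alpha, and Fen1 lie on chromosome 19. In double-transgenic replicate 3 they had deviations of -0.47 and -0.77, against a median of 0.14 over the 37 other replication genes and -0.46 over the 369 other genes of chromosome 19. In double-transgenic replicate 5 they had deviations of 0.75 and 0.30, against -0.02 over the replication genes elsewhere and 0.33 over the other genes of the chromosome. Chromosome 17 differed in this respect. Its 519 other genes also had a median of 0.33 in double-transgenic replicate 5, but its measured replication gene, Uhrf1, had a deviation of 0.0 there. Pola2 was lowest in double-transgenic replicate 3 and highest in double-transgenic replicate 5, and its difference between genotypes was 0.32 (95% interval -0.24 to 0.88), with 0.18 without double-transgenic replicate 5 and 0.48 without double-transgenic replicate 3. The part of these chromosomes in the levels was not tested.

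**Figure D4:**
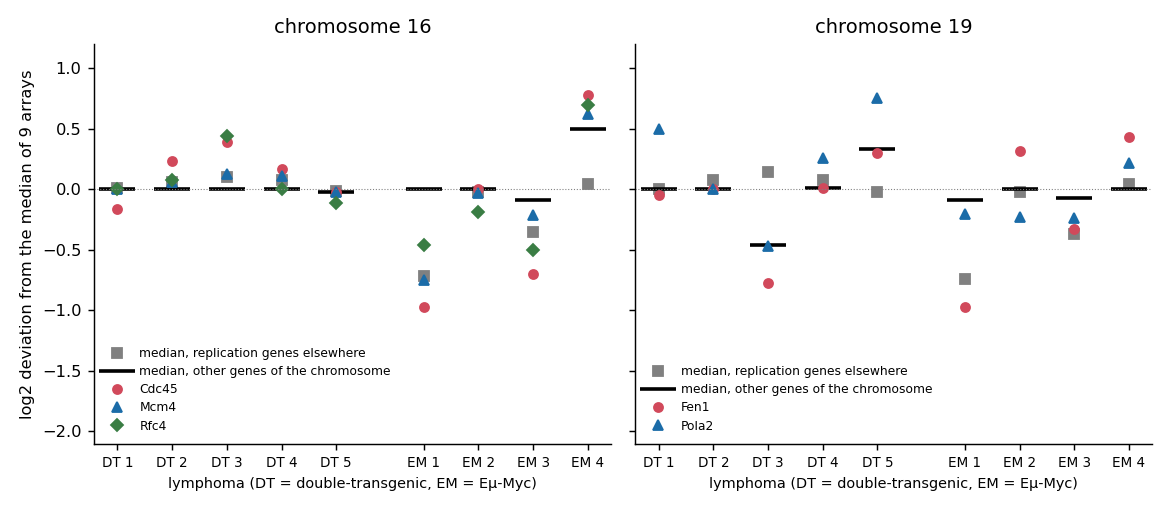
Log2 deviation from the median of 9 arrays (y axis) in each lymphoma (x axis) for the replication genes of chromosome 16 (left) and chromosome 19 (right), beside the median of replication genes elsewhere (grey squares) and of the other genes of the chromosome (bars). Mcm4, Cdc45 and Rfc4 stand 0.62 to 0.78 up in Eμ-Myc replicate 4, where replication genes elsewhere have a median of 0.04.

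Of 39 genes, 26 had at least 1 further probe set over the filter, 36 in all. The difference had the same sign as that of the chosen probe set in 32 of these 36, and the lowest array was the same in 27. Mcm4 was among the genes with a change of sign, with -0.15 from its second probe set, which was also highest in Eμ-Myc replicate 4. The second Rfc4 probe set was highest there too. That of Cdc45 was instead highest in double-transgenic replicate 3, at 7.90, and read 7.10 in Eμ-Myc replicate 4. Besides Mcm5, the genes Ccne1 and Pold1 were read from probe sets with names ending in _x_at.

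Other genes of the pathway gave 0 genes past the adjusted threshold in every list. Of 34 further replication factors tested, among them accessory polymerase subunits, RPA, checkpoint mediators and further origin factors, 31 had a positive and 3 a negative difference, with a median of 0.30; their median deviation in Eμ-Myc replicate 1 was -0.73, and 25 were lowest there. Named by their unadjusted limma p, Ctc1, a subunit of the CST complex, had a difference of 0.70 (SE 0.21), Dscc1, a subunit of an alternative clamp loader, one of 1.05 (SE 0.40), and Pold4, an accessory subunit of polymerase delta, one of 0.68 (SE 0.28), each with an adjusted p from limma of 0.845. Of 9 genes of deoxynucleotide synthesis and breakdown, 8 had a positive difference, with a median of 0.32, and 5 were lowest in Eμ-Myc replicate 1. Samhd1, which degrades deoxynucleotides, was the exception, with a difference of -0.61 (SE 0.24, adjusted p from limma 0.845) and its highest value, 12.36, in Eμ-Myc replicate 1. Without Eμ-Myc replicate 1 the differences of Dscc1 and Samhd1 were 0.64 and -0.38.

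Of 11 genes of replication-coupled chromatin assembly and methylation, 8 had a positive and 3 a negative difference, with a median of 0.11, and 6 were lowest in Eμ-Myc replicate 1. At the ends of this list, Hells, a chromatin remodeller, had a difference of 0.45 (0.30 without double-transgenic replicate 5), and Chaf1b, the middle subunit of chromatin assembly factor 1, one of -0.35 (0.08 without Eμ-Myc replicate 1). Chaf1b read 9.13 to 10.01 in double-transgenic lymphomas, against 11.33 in Eμ-Myc replicate 1, its highest value, and 8.91 to 10.48 in the other Eμ-Myc lymphomas. It lies on chromosome 16, whose 339 genes outside the origin and fork list had a median deviation of 0.003 in Eμ-Myc replicate 1. That median does not show the level of a part of the chromosome. Donson, a further replication factor on chromosome 16, was also highest in Eμ-Myc replicate 1, with a deviation of 1.92. The 3 origin and fork genes of the chromosome had deviations of -0.97 to -0.46 there. The part of the chromosome in these levels was not tested. Of 14 genes of the E2F and RB families, 9 had a positive difference, with a median of 0.11. Their median deviation in Eμ-Myc replicate 1 was -0.75, and 9 were lowest there. E2f3, a transcription factor of the family, had a difference of 0.53 (SE 0.21) and Rbl1, an RB relative, one of 0.62 (SE 0.24), both with an adjusted p from limma of 0.845; without Eμ-Myc replicate 1 these were 0.32 and 0.38.

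Mitotic genes had low values in the same tumours. Of 24 tested, 23 had a positive difference, with a median of 0.38, the median deviation was -0.99 in Eμ-Myc replicate 1 and -0.51 in replicate 3, and 23 were lowest in replicate 1. Ndc80, a kinetochore protein, had a difference of 0.97 (SE 0.32), Ect2, a cytokinesis factor, one of 0.62 (SE 0.21), Nusap1, a spindle protein, one of 0.54 (SE 0.21) and Aurka, a mitotic kinase, one of 0.72 (SE 0.31), each with an adjusted p from limma of 0.845. That of Aurka was 0.45 without Eμ-Myc replicate 1. The proliferation marker Mki67 read 14.20, 14.51, 14.04, 14.35 and 14.14 in double-transgenic replicates 1 to 5, against 13.48, 14.49, 13.84 and 14.41 in Eμ-Myc replicates 1 to 4, so its lowest tumours were also Eμ-Myc replicates 1 and 3. Its difference was 0.19 (SE 0.22) with all arrays, 0.001 without Eμ-Myc replicate 1 and 0.34 without Eμ-Myc replicate 2. Of 15 replication stress genes, 14 had a positive difference, with a median of 0.32, a median deviation in Eμ-Myc replicate 1 of -0.68 and 11 lowest there. Smarcal1, a fork remodeller, had a difference of 0.60 (SE 0.18, adjusted p from limma 0.845).

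**Figure D5:**
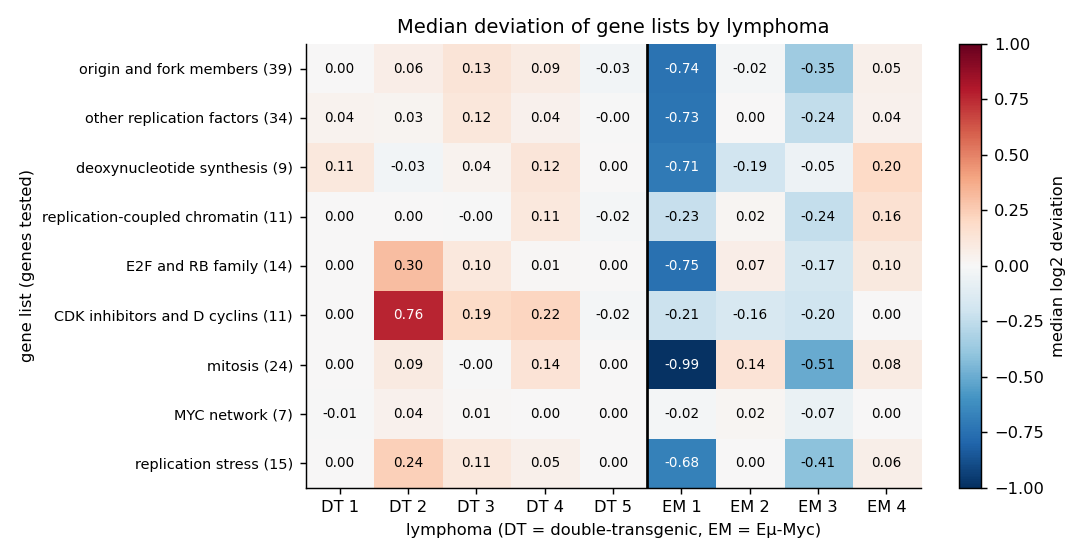
Median over each list of the log2 deviations of its genes (colour and printed value; a gene's deviation is from its own 9-array median) for the origin and fork genes and 8 further lists (y axis, number of genes tested in brackets) in each lymphoma (x axis). The origin and fork genes read -0.74 and the mitotic genes -0.99 in Eμ-Myc replicate 1, where the Myc and Max network reads -0.02.

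Myc mRNA was high in 1 of the 2 tumours with low replication genes and low in the other. It read 14.14, 13.78, 14.03, 14.15 and 14.01 in double-transgenic replicates 1 to 5, against 14.21, 14.02, 13.60 and 13.84 in Eμ-Myc replicates 1 to 4. Eμ-Myc replicate 1 had the highest and replicate 3 the lowest value of the 9, and the difference was 0.10 (95% interval -0.24 to 0.45). The arrays do not tell the transgene's transcripts from those of the gene. Of the 7 genes of the Myc and Max network, 5 had a positive difference, with a median of 0.10; Mxd4 stood at one end with 0.31 (0.04 without double-transgenic replicate 3) and Max at the other with -0.09.

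The inhibitors of cyclin-dependent kinases, the D cyclins and the kinases Cdk4 and Cdk6 did not share the pattern. They were read because they act upstream of origin firing. Of 11 tested, 8 had a positive difference, with a median of 0.19, and 1 was lowest in Eμ-Myc replicate 1. Their highest median deviation, 0.76, was in double-transgenic replicate 2. Ccnd1, which encodes cyclin D1, stood at 12.60, 8.03, 12.65, 12.82 and 12.61 in double-transgenic replicates 1 to 5, against 8.86, 12.32, 12.83 and 12.22 in Eμ-Myc replicates 1 to 4. It was thus low in double-transgenic replicate 2, where replication genes were not low, and in Eμ-Myc replicate 1, where they were. Cdkn1c, which encodes the inhibitor p57, read 3.63 to 5.06 in double-transgenic lymphomas, against 9.78 in Eμ-Myc replicate 1 and values of 3.68 to 4.58 in the other Eμ-Myc lymphomas. Its difference was -1.35 (SE 1.16) with all arrays and 0.08 without Eμ-Myc replicate 1. Cdkn2a, a further inhibitor gene, read 2.62, 6.94, 12.32, 5.73 and 9.65 in double-transgenic replicates 1 to 5. In Eμ-Myc replicates 1 to 4 it read 12.24, 2.60, 6.06 and 4.46, and its difference was 1.11 (SE 2.36). Cdkn2a was thus high in Eμ-Myc replicate 1, where replication genes were low, and in double-transgenic replicate 3, where they were not. Cdkn1a, which encodes the inhibitor p21, had a difference of 1.11 (SE 1.06), which was 0.42 without double-transgenic replicate 2, 1.83 without double-transgenic replicate 3 and 0.51 without Eμ-Myc replicate 1, with 5.52 to 11.20 in double-transgenic and 5.49 to 8.51 in Eμ-Myc lymphomas and its lowest value in Eμ-Myc replicate 1. The part of these inhibitors in the low replication values was not tested.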

How the data were processed

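One array per lymphoma was read from the deposited table. The authors deposited intensity values, from 1.56 to 123104.7, made with GCRMA per the submitters' processing notes; it corrects background by probe sequence, normalises quantiles and summarises probe sets, with a version not given in the sources used here. Linear values were found, so log2 was taken of the deposited intensity values without a pseudocount; log2 values had been planned for. Scanner files and scan dates were not analysed here. Array medians of the deposited intensities, before log2 was taken, were 12.2 to 13.4, and 0 columns of per-sample values were left unmapped.

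Of 45037 probe sets, 34945 had 1 annotated gene (932 several, 9160 none listed) and 34741 matched a reference gene (assembly GRCm38.p6, used for names and chromosomes). Of 18193 genes, 10172 passed the filter, 458 of them on _x_at probe sets. The genotype fit used limma 3.58.1 under R 4.3.3 (functions lmFit and eBayes, two-sided, Benjamini-Hochberg over all genes tested, threshold 0.05, no covariates) and single genes by exact permutation over all splits of 9 arrays into 5 and 4. Tested on simulated data for this comparison, 1 of 9972 unchanged genes was called and 0 in the wrong direction. These counts concern false calls and do not show how many true differences would be missed.

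The 40 genes, the lists and the motifs were chosen with earlier results of these data known. Values in every array are given for genes with an unadjusted p under 0.05 or groups that do not overlap, the 3 genes of each role with the largest SD and the 2 at each end of the difference; from pathway lists, up to 4 genes with an unadjusted p under 0.05, or else the 1 at each end, plus Myc, Ccnd1 and Mki67; other values were picked after they were seen. Alternatives covered the filter, the choice of probe set, normalisation, the variance model, array weights, a pseudocount of 16, replicate numbers as a block and each array left out.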

Additional observations from a re-analysis of the deposited data

Results flagged for a closer look

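In 118 groups of 4 or 5 values, 1 gene in 1 genotype each, the extreme sample was set against the others by Dixon's ratio; 9 stood apart, where chance alone flags about 1 in 20 groups, or 5.9. Of 78 such groups of the replication genes, 5 stood apart. Cdc7 in double-transgenic replicate 3 read 12.08, against 11.27 to 11.47 in the other double-transgenic lymphomas, and Mcm2 in double-transgenic replicate 1 read 12.65, against 12.44 to 12.50. Among Eμ-Myc lymphomas, Mcm5 in replicate 1 read 13.95, against 14.74 to 14.88, Orc2 in replicate 3 read 9.96, against 10.33 to 10.39, and Pola2 in replicate 4 read 11.26, against 10.80 to 10.83. So 1 of the 5 lay in Eμ-Myc replicate 1.

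The other 4 concern genes of the pathway lists. Ccnd1 in double-transgenic replicate 2 read 8.03, against 12.60 to 12.82 in the other double-transgenic lymphomas, and in Eμ-Myc replicate 1 it read 8.86, against 12.22 to 12.83. In Eμ-Myc replicate 1, Dscc1 read 7.99, against 9.61 to 9.66 in the other Eμ-Myc lymphomas, and Cdkn1c read 9.78, against 3.68 to 4.58. No explanation was weighed for any of these values.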

How the results depend on the processing

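Under each of the other settings, 0 of 39 replication genes passed the adjusted threshold of limma. The number with a positive difference lay between 33 (array weights) and 38, and the median difference between 0.18 (array weights) and 0.33, with no array left out. With arrays left out in turn, the number was 32 to 38, the median difference 0.19 (without Eμ-Myc replicate 1) to 0.47 (without Eμ-Myc replicate 4), and the genes past the threshold over all genes 0 to 8, with 8 without Eμ-Myc replicate 3 and 1 without Eμ-Myc replicate 4. The median deviation of the replication genes in Eμ-Myc replicate 1 lay between -0.76 and -0.74. Without both Eμ-Myc replicates 1 and 3, added after seeing the data, 14 genes passed over all genes, 22 replication genes had a positive difference and their median was 0.038.

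Small differences changed sign. Median centring gave -0.032 for Orc5, -0.030 for Dbf4 and -0.040 for Fen1. Array weights, which ranged from 0.456 for Eμ-Myc replicate 1 to 2.15 for double-transgenic replicate 4, gave -0.046 for Mcm4, -0.003 for Dbf4, -0.080 for Ccne2, -0.019 for Rfc4 and -0.17 for Fen1. The probe set with the largest SD gave -0.15 for Mcm4 and -0.009 for Fen1. Leaving out arrays gave ranges of -0.068 to 0.150 for Orc5, -0.11 to 0.49 for Cdt1, -0.071 to 0.386 for Mcm4, -0.084 to 0.133 for Dbf4, -0.056 to 0.523 for Ccne2, -0.17 to 0.35 for Prim2, -0.24 to 0.22 for Fen1, -0.003 to 0.20 for Myc, -0.71 to 1.12 for Ccnd1, -0.73 to 0.076 for Chaf1b and -1.96 to 0.075 for Cdkn1c. The causes were not tested.

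Replicate numbers are shared by the genotypes, but deviations of same-numbered tumours correlated at -0.089, 0.092, -0.003 and 0.196 across genes, so the numbers were not taken as pairs. With the replicate block, over the 8 arrays numbered 1 to 4, 37 replication genes had a positive difference with a median of 0.32 and 0 genes passed, Fen1 gave -0.064 and Ccnd1 -0.031.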

Other observations

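Prim2 lies on chromosome 1, and the 4 nearest tested genes on either side of it were read beside it. Genes that were not tested were skipped, so these are not always the adjacent genes. Phf3, the nearest tested gene on one side, read 11.04 to 11.24 in double-transgenic and 10.88 to 11.06 in Eμ-Myc lymphomas. Rab23, the nearest tested gene on the other side, read 5.72 to 7.24 in double-transgenic and 5.72 to 6.91 in Eμ-Myc lymphomas. Lmbrd1, the next tested gene beyond Phf3, read 11.68, 10.34, 11.75, 10.67 and 11.34 in double-transgenic replicates 1 to 5, against 11.17, 11.93, 11.98 and 11.03 in Eμ-Myc replicates 1 to 4. Like Prim2 it was low in double-transgenic replicates 2 and 4 and Eμ-Myc replicate 4, but unlike Prim2 it was high in Eμ-Myc replicate 2. Prim2 itself spanned 11.21 to 13.25 in double-transgenic and 11.41 to 12.52 in Eμ-Myc lymphomas. Of the neighbours examined, Fam135a read 3.74 to 5.05 in double-transgenic lymphomas, against 10.61 in Eμ-Myc replicate 1 and values of 3.82 to 6.02 in the other Eμ-Myc lymphomas, a value chosen after it was seen. No test was made of these values.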
